A study of Mus musculus with 6 samples.

Results

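Members of the S100 family other than S100a10 were described in ribosome-bound RNA from the cortex of mice that lack p11, the protein encoded by S100a10. The members were 9 genes (S100a1, S100a4, S100a6, S100a8, S100a9, S100a11, S100a13, S100a16 and S100b), and every probe set that the platform annotation assigns to 1 of these symbols alone was taken. This gave 11 probe sets for 8 genes, out of 34945 probe sets with 1 symbol and 45037 in all. S100a11 had no probe set with a single symbol and has no value here.

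The mice were S100a10 bacTRAP/p11 KO animals of line ES691, which carry a bacterial artificial chromosome that tags ribosomes in cells where the S100a10 driver is active, so that their bound mRNA can be pulled down (translating ribosome affinity purification, TRAP). One group received fluoxetine, a selective serotonin reuptake inhibitor, at 0.167 mg/ml in 1% saccharine (FLX), and the other received 1% saccharine alone (VEH), both in drinking water for 15 to 18 days. Each group had 3 arrays from biological replicates numbered 1 to 3, and all 6 arrays came from constitutive knockouts on a background moved from FVB to C57BL/6 by 3 to 5 generations of backcrossing. The labels give neither age nor the number of animals behind an array, no mice with p11 were analysed, and the submitters state that the driver also labels some non-neuronal cells.

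S100 proteins are small calcium-binding proteins that mostly work as dimers. Each subunit holds a pair of EF-hand loops, and calcium binding to them exposes a surface that docks on target proteins such as annexins, cytoskeletal proteins and ion pumps. Some members are also secreted and act on receptors such as RAGE and Tlr4. In the brain S100b is best known from astrocytes, while S100a8 and S100a9 are abundant in neutrophils and S100a4 and S100a6 in fibroblasts and other mesenchymal cells. S100a10 is unusual in the family because it no longer responds to calcium.

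Where several values of a group are listed, they are in the order of replicates 1, 2 and 3. Replicate 3 differed from the rest in FLX and VEH alike. Between replicates 1 and 2 of both groups, arrays correlated at r = 0.987 to 0.995 over the 22200 tested probe sets, whereas the replicate 3 arrays reached only 0.867 to 0.916 with the others and 0.973 with each other. Array medians lay between 38.5 and 41.3 in FLX and between 39.7 and 41.9 in VEH arrays. The brightest of 3 S100a10 probe sets lay between 349 and 2222 in FLX and between 643 and 3111 in VEH arrays, and since neither labels nor files say whether its probes fall in the deleted part, it checks nothing about the genotype. Markers of the labelled pyramidal cells were present, with 8 of 8 probe sets past the minimum of 50. So were all 11 interneuron, 20 leptomeningeal and fibroblast, 15 astrocyte and 14 oligodendrocyte markers on the array. In these bulk pull-downs, fewer cells of a type and less RNA per cell cannot be told apart.

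No S100 member differed between FLX and VEH at an adjusted p under 0.05 in limma, nor did any of the 22200 probe sets tested (0% called, 83 at an unadjusted p under 0.05, which is 0.374%). Most of the differences nevertheless lay in one direction. Of the 11 member probe sets, 9 had a lower mean log2 value in FLX than in VEH arrays, against 42.8% of all probe sets tested. The 9 include both probe sets of S100a1 and of S100b, and the difference of the brighter S100b probe set rounds to 0.00. FLX was the lower array in all 3 pairs of equal replicate number for 7 of the 11 probe sets, against 13.6% of all, and for none (0) was it higher in all 3, against 19.6%. The median difference over the 8 genes, each by its brightest probe set, was -0.36 on the log2 scale, against 0.04 over all probe sets tested. By pair it was -0.45, -0.11 and -0.32. With the replicate number as a block, 3 of the 11 (the dimmer S100a1 probe set, S100a4 and S100a9) had an unadjusted p under 0.05, all lower in FLX, against 7.95% of all in either direction and 4.01% lower, and 0 passed the adjusted threshold (0%). S100a8 passed the minimum of 50 through its VEH mean alone, which favours a lower FLX value. Without it, a setting added after seeing the data, 8 of 10 probe sets had a lower mean in FLX and the median was -0.34. The members share arrays and cell sources, so they are not independent of one another. They were also chosen with earlier results of these data known, so the counts beside the shares of all probe sets are a description. The pair counts and the block assume that arrays of equal number belong together, which the labels do not say. Without both replicate 3 arrays the median was -0.35. With a single array left out it was -0.54, -0.70 and 0.18 without FLX replicates 1, 2 and 3, and -0.02, -0.09 and -0.73 without VEH replicates 1, 2 and 3, so its size and sign depend on which arrays are included.

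**Figure D1:**
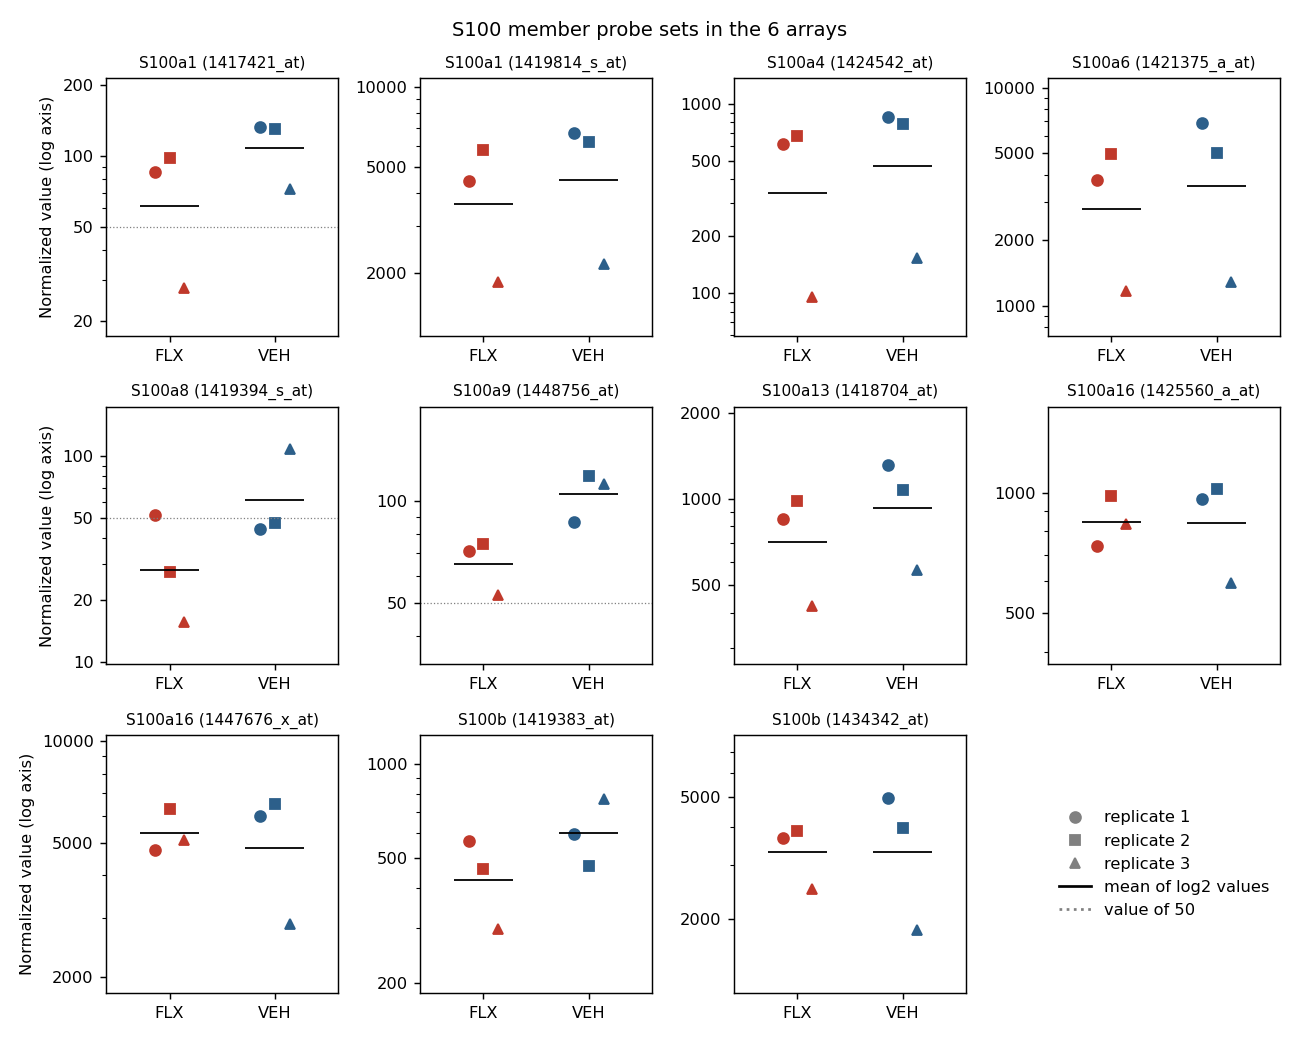
Normalized value of each S100 member probe set (log axis, own range in each panel) in the FLX arrays (left, red) and VEH arrays (right, blue), with the replicate number given by the symbol and the mean of log2 values by the bar. The replicate 3 arrays (triangles) lie below the rest for S100a1, S100a4, S100a6, S100a13 and the brighter S100b probe set, and the groups are fully separated for S100a9 alone.

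S100a1 and S100a13 lie next to each other on chromosome 3 in the RefSeq annotation (GRCm38.p6) and are transcribed away from each other, so their promoters overlap. S100a1 is known in muscle for binding the ryanodine receptor and the calcium pump Atp2a2, and S100a13 for its part in the release of Fgf1. The windows below run from 250 bases before to 50 bases after each start, 5′ to 3′ on the strand of the gene, as given by RefSeq on GRCm38.p6. They are shown because 204 of the 300 bases, in capitals, are the same DNA read from opposite strands.
S100a1, chr3:90514281-90514580, minus strand: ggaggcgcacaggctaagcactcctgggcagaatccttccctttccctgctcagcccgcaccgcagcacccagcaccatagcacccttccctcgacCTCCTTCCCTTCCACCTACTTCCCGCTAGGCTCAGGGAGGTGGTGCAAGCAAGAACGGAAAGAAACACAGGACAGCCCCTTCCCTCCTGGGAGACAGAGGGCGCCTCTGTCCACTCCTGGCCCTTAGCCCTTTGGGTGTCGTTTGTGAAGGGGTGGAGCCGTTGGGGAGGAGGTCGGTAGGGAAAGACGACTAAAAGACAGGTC
S100a13, chr3:90514185-90514484, plus strand: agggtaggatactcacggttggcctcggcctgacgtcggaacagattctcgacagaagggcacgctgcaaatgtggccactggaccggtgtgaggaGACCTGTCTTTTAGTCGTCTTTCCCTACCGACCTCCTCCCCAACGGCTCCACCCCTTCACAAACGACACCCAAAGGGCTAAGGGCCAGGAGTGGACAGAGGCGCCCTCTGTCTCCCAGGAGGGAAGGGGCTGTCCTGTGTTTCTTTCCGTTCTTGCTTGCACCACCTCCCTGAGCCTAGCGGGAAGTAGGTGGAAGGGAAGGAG

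The brighter S100a1 probe set (1419814_s_at) read 4423, 5775 and 1846 in the FLX arrays, against 6728, 6198 and 2147 in the VEH arrays. FLX was lower in each pair, yet the groups overlapped because replicate 3 was low in both. The log2 difference was -0.31 (SE 0.612, 95% interval -1.80 to 1.18, limma adjusted p = 1.00). A name ending in _s_at marks a probe set that can match more than 1 transcript. The dimmer probe set (1417421_at) read 85.5, 97.9 and 27.7 in the FLX arrays, against 133, 130 and 72.2 in the VEH arrays. It too was lower in FLX in each pair, with log2 differences of -0.64, -0.41 and -1.38, and its mean difference was -0.81 (SE 0.549, limma adjusted p = 1.00). The same difference had a limma SE of 0.217 when the replicate number entered as a block, with an adjusted p of 0.623.

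S100a13 read 851, 986 and 421 in the FLX arrays, against 1310, 1077 and 562 in the VEH arrays. Its pair differences of -0.62, -0.13 and -0.42 followed the order of the brighter S100a1 probe set in replicates 1 and 2 (-0.61 and -0.10), and in replicate 3 S100a1 was at -0.22. The mean log2 difference of S100a13 was -0.39 (SE 0.460, 95% interval -1.51 to 0.73, limma adjusted p = 1.00). It was -0.02 without the FLX replicate 3 array, -0.14 without VEH replicate 1 and -0.75 without VEH replicate 3.

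S100a4, also called metastasin and a marker of fibroblasts, and S100a6, also called calcyclin, lie on either side of S100a5 on chromosome 3. S100a4 read 612, 675 and 95 in the FLX arrays, against 853, 786 and 153 in the VEH arrays. Each FLX array was below the VEH array of the same number, and replicate 3 of both groups was far below all other arrays. The log2 difference was -0.46 (SE 1.00, 95% interval -2.91 to 1.99, limma adjusted p = 1.00), and with the replicate block the interval was -0.86 to -0.07 (adjusted p = 0.623). Without both replicate 3 arrays it was -0.35 (SE 0.136, adjusted p = 0.794).

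S100a6 read 3759, 4975 and 1167 in the FLX arrays, against 6882, 4995 and 1282 in the VEH arrays. The pair differences were -0.87, -0.01 and -0.14, so replicate 1 carried most of the mean difference of -0.34 (SE 0.812, limma adjusted p = 1.00), and the sign turned to 0.14 without the VEH replicate 1 array. As for S100a4 and the brighter S100a1 probe set, the sign also turned without the FLX replicate 3 array (0.29 for S100a6, 0.46 for S100a4 and 0.18 for S100a1).

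The window of S100a4 is printed with that of S100a8, described further on, because these hold the letters TATAAA (capitals) just upstream of the start, at positions -31 and -30 counted from the start.
S100a4, chr3:90603520-90603819, plus strand: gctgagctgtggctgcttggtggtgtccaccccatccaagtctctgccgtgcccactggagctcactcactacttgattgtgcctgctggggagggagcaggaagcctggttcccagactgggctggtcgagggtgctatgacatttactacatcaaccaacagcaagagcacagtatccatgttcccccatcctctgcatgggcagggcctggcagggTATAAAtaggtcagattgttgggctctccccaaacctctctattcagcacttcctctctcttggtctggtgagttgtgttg
S100a8, chr3:90668821-90669120, plus strand: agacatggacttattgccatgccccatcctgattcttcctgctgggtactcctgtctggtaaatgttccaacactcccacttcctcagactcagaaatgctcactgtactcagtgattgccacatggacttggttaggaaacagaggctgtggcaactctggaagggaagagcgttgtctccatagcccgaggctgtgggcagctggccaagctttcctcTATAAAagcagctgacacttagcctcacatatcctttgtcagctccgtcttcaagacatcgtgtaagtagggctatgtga
Windows were found for 9 members (10 windows, S100a16 with more than 1). TATAAA, searched on both strands, was in 3 of the 10, the third being S100a9 with a match at position 1, and in 13.6% of all 32851 windows of this length. CCAAT was in 2 of the 10 (S100a6 and S100b) and in 37.4% of all, and GGGCGG in 3 of the 10 (S100a9, S100a11 and 1 of the S100a16 windows) and in 35.7% of all. The S100a1 and S100a13 windows held none of these motifs.

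**Figure D2:**
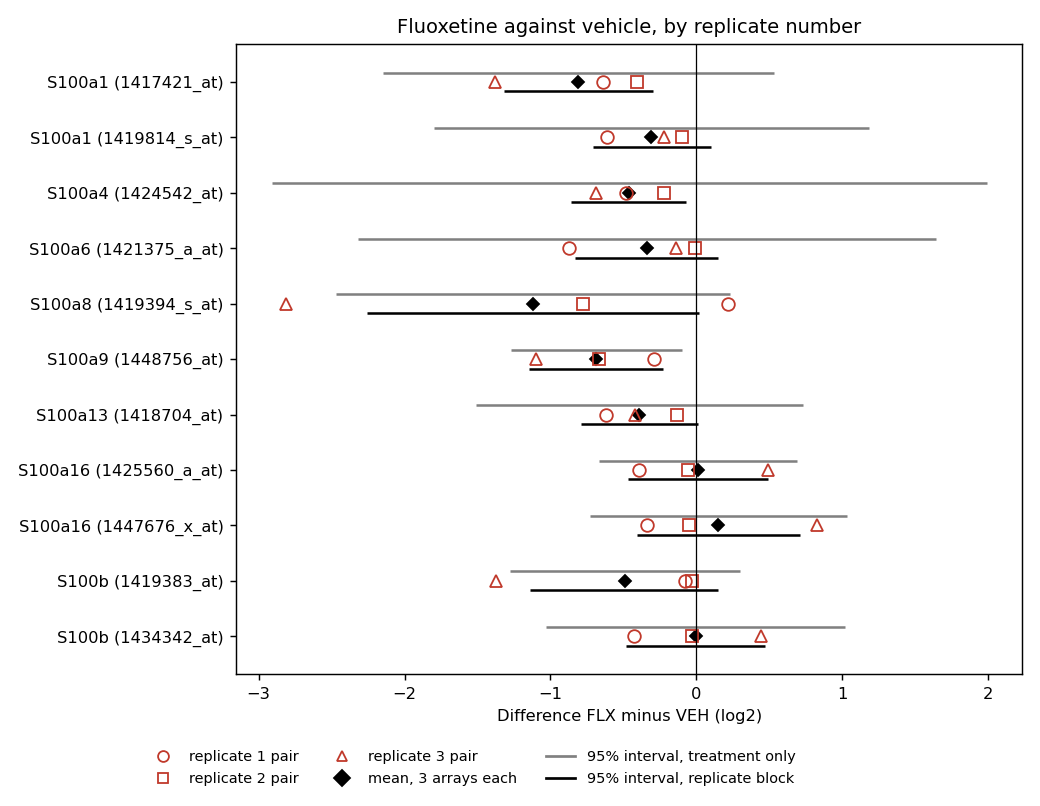
Log2 difference FLX minus VEH of each S100 member probe set in the replicate 1, 2 and 3 pairs (open symbols) and their mean (diamond), with 95% intervals from limma without (grey) and with (black) the replicate number as a block. S100a1, S100a4, S100a6, S100a9, S100a13 and the dimmer S100b probe set lie left of 0 in all 3 pairs, and S100a16 and the brighter S100b probe set lie right of 0 in replicate 3 only.

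S100a16, a broadly expressed member, had a pair of probe sets. The brighter (1447676_x_at, a type that can match other transcripts) read 4749, 6283 and 5105 in the FLX arrays, against 5999, 6485 and 2876 in the VEH arrays. The FLX arrays lay within the range of the VEH arrays. The log2 difference was 0.15 (SE 0.360, 95% interval -0.73 to 1.03, limma adjusted p = 1.00). By pair it was -0.34, -0.05 and 0.83, so its positive sign came from replicate 3, and without both replicate 3 arrays it was -0.19. The dimmer probe set (1425560_a_at) read 737, 978 and 835 in the FLX arrays, against 965, 1023 and 596 in the VEH arrays. It had the same order by pair, at -0.39, -0.06 and 0.49, with a mean of 0.01 (SE 0.279).

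S100b, the astrocyte member and the only one on chromosome 10, had probe sets that disagreed in replicate 3. The brighter (1434342_at) read 3693, 3886 and 2510 in the FLX arrays, against 4961, 3967 and 1844 in the VEH arrays. Its log2 difference was 0.00 (SE 0.421, 95% interval -1.03 to 1.02, limma adjusted p = 1.00), made of -0.43, -0.03 and 0.44 in the pairs. The dimmer (1419383_at) read 566, 461 and 298 in the FLX arrays, against 597, 470 and 768 in the VEH arrays. Its pair differences were -0.08, -0.03 and -1.37, with a mean of -0.49 (SE 0.324, limma adjusted p = 1.00). With 1 array left out, the brighter ran from -0.43 to 0.29 and the dimmer from -0.69 to -0.23. In replicate 3 the direction of S100b therefore depends on the probe set, and without both replicate 3 arrays the differences were -0.23 (SE 0.160) and -0.05 (SE 0.186). Summed over 15 astrocyte markers, the level was 59816 to 75302 in FLX and 58433 to 64014 in VEH arrays, and 12 of the 15 had a positive difference with a median of 0.28. Of the 15, 8 were higher in FLX in all 3 pairs, against 19.6% of all tested probe sets, and 0 passed the threshold. The part of astrocyte RNA in the S100b values was not tested.

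S100a8 and S100a9 form the calprotectin dimer of neutrophils and lie next to each other on chromosome 3. S100a9 read 71.1, 74.7 and 52.6 in the FLX arrays, against 87.0, 119 and 113 in the VEH arrays. It was the 1 member probe set whose groups did not overlap, which 1.79% of all tested probe sets did in this direction and 2.55% in the other. The log2 difference was -0.69 (SE 0.240, 95% interval -1.27 to -0.10, limma unadjusted p = 0.0281 and adjusted p = 1.00). It was -0.29, -0.67 and -1.10 in the pairs. With any single array left out it stayed between -0.82 and -0.53, and without both replicate 3 arrays it was -0.48 (SE 0.187).

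S100a8 read 52.0, 27.5 and 15.6 in the FLX arrays, against 44.6, 47.2 and 109 in the VEH arrays. It passed the minimum of 50 through the VEH mean alone, which the VEH replicate 3 array raised. The groups overlapped, and the log2 difference of -1.12 (SE 0.554, 95% interval -2.47 to 0.23, limma adjusted p = 1.00) ran from 0.22 in replicate 1 over -0.78 in replicate 2 to -2.81 in replicate 3. Without both replicate 3 arrays it was -0.28 (SE 0.308). Both genes were dim, and neutrophil markers were mostly dim too. Of 13 on the array, 8 stayed under 50 in all 6 arrays, and their summed level was 357 to 418 in FLX and 360 to 417 in VEH arrays. Of the 2 that were tested, Ltf (lactoferrin) had a log2 difference of -0.17 (SE 0.357) and Prtn3 (proteinase 3) 0.28 (SE 0.356). Prtn3 passed the minimum of 50 through its FLX mean alone (52.5, against 41.9 in VEH), which favours a higher FLX value.

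The members differed in how replicate 3 stood to the other replicates. Both replicate 3 arrays were below the other 4 arrays for 6 of the 11 probe sets (both of S100a1, the brighter of S100b, S100a4, S100a6 and S100a13) and above them for 0, against 32.4% and 34.5% of all tested probe sets. Relative to replicates 1 and 2 of its own group, S100a4 was 6.77-fold lower in FLX replicate 3 and 5.34-fold lower in VEH replicate 3. S100a6 was lower by 3.71-fold and 4.57-fold in FLX and VEH, the brighter S100a1 probe set by 2.74-fold and 3.01-fold, and S100a13 by 2.17-fold and 2.11-fold. The dimmer S100a1 probe set was lower by 3.30-fold in FLX and 1.82-fold in VEH. Whether the shifts differed between the groups was not tested. The brighter S100a16 probe set was 1.07-fold lower in FLX replicate 3 and 2.17-fold lower in VEH replicate 3, and S100a8 had opposite shifts of -1.28 in FLX and 1.25 in VEH on the log2 scale. These shifts are values with no test, since replicate 3 was singled out after the arrays were compared.

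**Figure D3:**
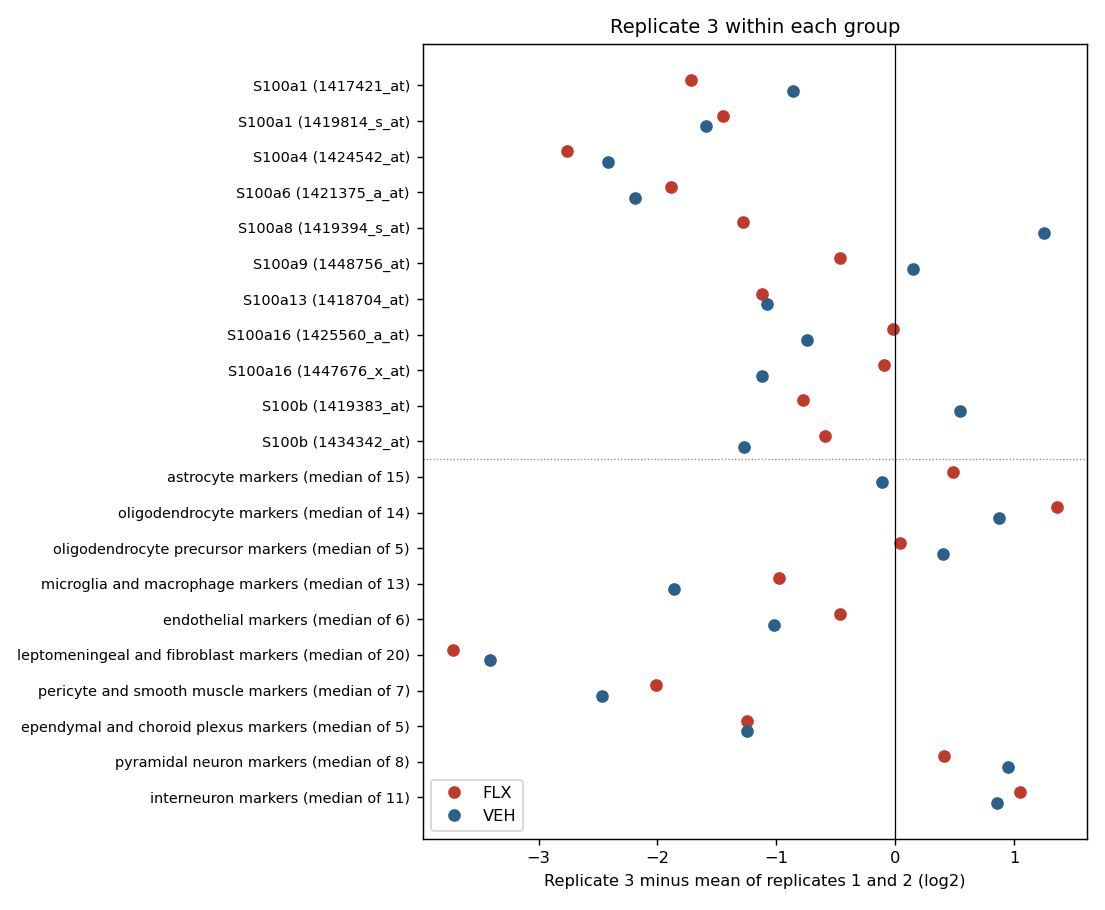
Log2 value of replicate 3 minus the mean of replicates 1 and 2 within FLX (red) and within VEH (blue) for each S100 member probe set (above the dotted line) and, as a median over tested genes, for marker lists of cell types (below it). S100a1, S100a4, S100a6 and S100a13 are shifted down in both groups, as are leptomeningeal and fibroblast markers (-3.72 in FLX and -3.41 in VEH).

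Most leptomeningeal, fibroblast, pericyte and smooth muscle markers had both replicate 3 arrays below the other 4, against 32.4% of all tested probe sets. All 20 leptomeningeal and fibroblast markers had both replicate 3 arrays below the other 4, with a median of -3.72 for FLX and of -3.41 for VEH, and for pericyte and smooth muscle markers the medians were -2.01 and -2.47, with 5 of 7 tested genes below the other 4 arrays and 1, Rgs5, above them (1.96 in FLX and 1.55 in VEH, named after its values were seen). The summed leptomeningeal level was 137304, 205044 and 32943 in the FLX arrays, against 186358, 197076 and 54339 in the VEH arrays. Other lists also had tested genes with both replicate 3 arrays below the rest. Among them were 9 of 13 microglia and macrophage markers (medians -0.98 in FLX and -1.86 in VEH) and 3 of 5 ependymal and choroid plexus markers (-1.25 in each). Endothelial markers had 3 of 6 (-0.47 and -1.02). The same held for 4 of 15 astrocyte, 2 of 14 oligodendrocyte, 1 of 5 oligodendrocyte precursor and 1 of 8 pyramidal markers. It also held for 1 of 2 neutrophil and 1 of 1 red blood cell markers, and for 0 of 11 interneuron markers. Above the rest lay 1 microglia, 1 endothelial, 1 neutrophil and 4 astrocyte markers. So did 9 oligodendrocyte (medians 1.36 in FLX and 0.87 in VEH), 7 interneuron (1.05 and 0.85) and 5 pyramidal markers (0.41 and 0.95), against 34.5% of all tested probe sets. By pair, FLX minus VEH had medians of -0.61, 0.11 and -0.58 for the leptomeningeal list and -0.86, -0.12 and -0.42 for the pericyte list, beside -0.45, -0.11 and -0.32 for the S100 genes. In all 3 sets the replicate 2 pair was nearest to 0, which is not particular to them. The other EF-hand genes (0.32, 0 and 0.22) and pyramidal markers (0.40, 0.06 and 0.15) had it too. Oligodendrocyte precursor markers did not (0.13, 0.29 and 0.45). Of the 20 leptomeningeal markers 17 had a negative difference, and of the 7 tested pericyte and smooth muscle markers 6, against 42.8% of all tested probe sets. None of them (0) passed the threshold. Foxd1, a leptomeningeal transcription factor, was at -0.79 (SE 1.29), and Acta2, smooth muscle actin, at -0.73 (SE 0.900). Whether RNA of such cells takes part in the S100 differences was not tested. The log2 gap between the 3′ and 5′ controls, averaged over Gapdh and Actb, widens as RNA breaks down. It was 2.20, 2.09 and 2.08 in FLX and 2.33, 2.19 and 2.20 in VEH arrays, and its part was not tested either.

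The S100 genes outside the members were mostly not measurable. Of the 5 on the array, S100pbp, which encodes an S100P-binding protein and is itself no S100 gene, was tested, with a log2 difference of 0.11 (SE 0.211). The other 4 had group means under 50, the brightest being S100a14 at 16 to 22 in FLX and 16 to 26 in VEH arrays.

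The tested receptors that S100 proteins act on were also low in replicate 3. Of 6 receptors on the array 4 were tested, and 3 of these had a negative difference. All 4 had both replicate 3 arrays below the other 4 arrays, against 32.4% of all tested probe sets. Tlr4, the innate immune receptor for S100a8 and S100a9, read 166, 273 and 19.3 in the FLX arrays, against 331, 276 and 18.4 in the VEH arrays, and its log2 difference was -0.31 (SE 1.46). Fgfr1 was at -0.28, Alcam at -0.26 and Bsg (basigin) at 0.05. Ager, the gene of RAGE, did not pass the minimum of 50.

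Binding partners and targets of S100 proteins were mixed in direction. Of 25 tested, 10 had a negative difference, against 42.8% of all tested probe sets, and 15 a positive one (median 0.11, against 0.04). In all 3 pairs, 4 were lower in FLX (13.6% of all) and 10 higher (19.6% of all). With or without the replicate block, 0 passed the threshold. Ryr2, the calcium release channel bound by S100a1 in heart, read 1004, 937 and 818 in the FLX arrays, against 656, 776 and 661 in the VEH arrays. Its groups did not overlap, which 2.55% of all tested probe sets did in this direction, and the difference was 0.40 (SE 0.194, limma adjusted p = 1.00). Capza1, a subunit of the actin capping protein, named after its values were seen, was separated in the other direction (1.79% of all) at -0.26 (SE 0.196). Atp2a2, the calcium pump of the endoplasmic reticulum, was at 0.30 (SE 0.614). Gfap, an intermediate filament of astrocytes that binds S100b, was at 1.50 (SE 0.814), with 1.77, 1.22 and 1.50 in the pairs. Myh9, non-muscle myosin bound by S100a4, was at -0.86 (SE 0.429), with pair differences of -0.62, 0.18 and -2.15. Syn2, a synaptic vesicle protein, was at 0.38 (SE 0.354).

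Other EF-hand calcium sensors and buffers differed from the S100 members in sign. Of 28 tested, 5 had a negative difference, against 42.8% of all tested probe sets, and 23 a positive one. The median was 0.15, against 0.04 over all tested probe sets, and 0 passed the threshold. FLX was higher in all 3 pairs for 7 of the 28 (19.6% of all) and lower in all 3 for 2 (13.6% of all). Calb1, the calbindin buffer of neurons, read 9911, 9597 and 21805 in the FLX arrays, against 6532, 8186 and 14257 in the VEH arrays, a difference of 0.48 (SE 0.447). Necab1 was at 0.38 (SE 0.214), and the abundant sensors Hpcal4 and Vsnl1 were at 0.12 and 0.11. Of the 5 with a negative difference, 2 were lower in FLX in all 3 pairs. These were Cib1 at -0.61 (SE 0.432) and Calml4, named after its values were seen, at -1.05 (SE 1.05). The medians of the list in replicate 3 were 0.31 for FLX and 0.53 for VEH relative to replicates 1 and 2, opposite to S100a1, S100a4, S100a6 and S100a13. The difference between this list and the S100 members was not tested.

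Likeness to a member was measured as Pearson's r of log2 values over the 6 arrays. It is given as a description, since the arrays fall into replicate 3 and the rest. The closest to S100a4 were Tmed5, Vamp5 and Twist1 (all at r = 1.00 when rounded), and 2108 probe sets reached r = 0.95. Similar numbers, 2286 and 2195, did so for S100a1 and S100a6, whose closest were Zcchc24 and Phactr2, and 1303 and 1410 for S100a13 and S100b, whose closest were Tgif2 and Tmco4. S100a16 had 255, led by Sh3bp5 (r = 0.996). S100a8 and S100a9, for which replicate 3 was shifted in opposite directions in FLX and VEH, had 33 and 12, led by Foxp1 (r = 0.992) and Cdk6 (r = 0.995).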

How the data were processed

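Per the labels' protocols, RNA of the pulled-down ribosomes was purified and 15 ng of it went through 2 cycles of amplification, then biotin labelling for 1-colour arrays. The deposited values are probe set intensities made by the authors with GCRMA (version not given), per the submitters' processing notes. They are on a linear scale, as their range shows. Of 45101 probe sets, 64 controls were left out. The platform annotation gives 1 symbol for 34945, several for 932 and none for 9160, and 0 symbols changed when looked up by gene identifier in RefSeq.

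The comparison of FLX with VEH used limma 3.58.1 (R 4.3.3) on log2 intensity without a pseudocount, treatment as the only term, two-sided, with Benjamini-Hochberg adjustment at 0.05 over the 22200 probe sets with a mean of 50 or more in at least 1 group. All 11 S100 member probe sets passed. SE are limma's. With 3 arrays per group, their number limits the precision. The fit was tested on simulated data. Alternatives were a pseudocount of 16, no filter, a filter at 100, subtracted array medians, a variance trend, the replicate number as a block and arrays left out.

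Deviations from the group means correlated at r = 0.70, 0.84 and 0.87 between FLX and VEH arrays of equal replicate number. All were above the limit of 0.1, and the numbers were used to pair the arrays. FLX replicate 2 with VEH replicate 1 reached 0.76 and FLX replicate 1 with VEH replicate 2 reached 0.64. With replicate 3 apart in both groups, the limit cannot show that replicates 1 and 2 are paired by number. The pair counts and the block assume it. What the numbers stand for is not in the labels. The members and gene lists were chosen with earlier results of these data known. In each list the text names genes from the 3 with the smallest unadjusted p and the 2 brightest, by the brightest probe set. Ager is named outside this rule. The submitters' list of recommended probe sets was not used. Figures were drawn with matplotlib 3.10.9.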

Additional observations from a re-analysis of the deposited data

How the results depend on the processing

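The count of probe sets called between FLX and VEH was 0 under 14 of 15 alternatives. It was 1 with the replicate block and both replicate 3 arrays left out, an alternative added after seeing the data. That probe set was Bche, named after its value was seen, at -2.55 (adjusted p = 0.0485). In the replicate 3 pair it was at 0.28, and over all arrays without the block at -1.61 (adjusted p = 1.00). With the replicate block on all arrays the count was 0, and 1764 had an unadjusted p under 0.05, against 83 without it. On all arrays the block changed no call, and the smallest limma adjusted p of a member over all alternatives was 0.540. Of 164 member values under alternatives, 149 kept their sign and 15 did not. The reversals of S100a16 were -0.01 (dimmer probe set) with array medians subtracted, and -0.23 (dimmer) and -0.19 (brighter) without both replicate 3 arrays, with or without the block. With 1 array left out, the brighter S100a1 probe set ran from -0.84 to 0.18, S100a4 from -1.27 to 0.46, S100a6 from -1.07 to 0.29, S100a16 from -0.23 to 0.16 (dimmer) and -0.22 to 0.36 (brighter), and the brighter S100b from -0.43 to 0.29. The other 5 kept a negative sign, at -1.14 to -0.23 for the dimmer S100a1 and -0.69 to -0.23 for the dimmer S100b probe set, -1.56 to -0.69 for S100a8, -0.82 to -0.53 for S100a9 and -0.75 to -0.02 for S100a13. The member median ran from -0.73 (without VEH replicate 3) to 0.18 (without FLX replicate 3). It was -0.54, -0.70, -0.02 and -0.09 without FLX replicates 1 and 2 and VEH replicates 1 and 2. Leaving out 1 array makes the replicate numbers unequal between the groups. Relative to replicates 1 and 2, the members had a median of -1.20 in FLX replicate 3 and -1.19 in VEH replicate 3. Without both replicate 3 arrays the member median was -0.35, against -0.36 with all arrays. The cause of the range was not tested. S100a8, near the minimum of 50, was not tested under the filter at 100. With 3 arrays per group and replicate 3 apart, the 95% intervals without the block span up to several log2 units.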
